A study of Mus musculus with 6 samples.

Results

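The 9 genes C3, C4b, Cfb, Cfi, C1ra, C1s1, C3ar1, C5ar1 and Cd55, which encode components, inhibitors and receptors of the complement system other than the C1q chains, were followed in kidney RNA. They were chosen by gene name, and 9 of 9 were present among the 54532 genes of the deposited tables. All 9 also passed the filter on low counts, which left 15816 genes to be tested. The kidneys came from C57BL/6J mice, male according to the methods, that had received cisplatin, a platinum drug toxic to the proximal tubule, at 18 mg/kg and were sampled at 72 h. The 3 WT kidneys (replicates 1, 2 and 3) were compared with 3 TRPM2-KO kidneys (replicates 1, 2 and 4), with 1 library per kidney. TRPM2-KO (Trpm2-/-) mice lack, in all tissues, exons that code for part of the transmembrane region of the TRPM2 cation channel. The labels give an age of 6 to 8 weeks, whereas the methods give an older range. All 6 libraries were from treated mice, so the values describe the genotypes after cisplatin and no change brought about by cisplatin itself.

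The complement system is a cascade of plasma and membrane proteins that marks and lyses targets. C1r and C1s are the serine proteases of the first component, of which C1s cleaves C4. Every route of activation meets at C3, whose larger fragment is deposited on surfaces and, with factor B, forms the convertase that amplifies its own cleavage. Factor I and decay-accelerating factor (CD55) hold this amplification back, and the small fragments released from C3 and C5 act on cells through the receptors encoded by C3ar1 and C5ar1. The liver makes most circulating complement, but the kidney also transcribes components of its own, among them C3 in tubular cells.

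Total counts were between 14053307 and 17150089 per library, at which 3 counts amounted to 0.184 to 0.205 CPM (counts per 1000000). The mitochondrial genome took 4.43% to 4.72% of counts in WT libraries and 7.91% to 11.04% in TRPM2-KO libraries. All 12 of 12 proximal tubule markers were called lower in TRPM2-KO kidneys, against 7.28% of all genes. Their summed level ranged from 10186 to 12817 CPM in WT and from 3649 to 5313 CPM in TRPM2-KO. Of 10 tubular injury markers, 3 were called higher (Sox9, Krt20 and Cd44), against 4.74% of all genes. All 10 had a log2 fold change above 0, and 6 had an unadjusted p under 0.05 with edgeR. No share of all genes is given at that unadjusted level, so counts at it, here and below, are not set against all genes. Called lower were 2 of 8 distal nephron, 2 of 4 urothelium and 1 of 1 fat genes tested, against 7.28% of all genes. The urothelium sum was 69.7 CPM in WT replicate 1, beside 13.4 and 20.1 CPM in WT replicates 2 and 3. The fat gene called was not Adipoq, which was barely detected outside WT replicate 1. Its log2 fold change was -1.53 for the gene called, and the summed list stood at 50.6, 35.1 and 29.1 CPM in WT and at 11.6 to 13.3 CPM in TRPM2-KO. The 1 lymphocyte gene tested was not called. In RNA from whole kidneys, fewer cells of a type and less RNA per cell cannot be told apart. TRPM2-KO replicate 4 stood apart from the other libraries, with summed podocyte markers at 3.24 times, fibroblast markers at 2.04 times and endothelial markers at 1.496 times the WT mean. The Trpm2 gene itself had 5, 5 and 27 counts in WT and 10, 16 and 20 counts in TRPM2-KO, and counts over the whole gene do not check an allele that removes only some exons.

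The promoter of C3 is shown because C3 dominated the group, and that of Cd55 because it was the steadiest member in WT kidneys. Each is the stretch of 250 bases before the annotated start of the gene, from RefSeq on GRCm38.p6, written 5′ to 3′ on the strand of the gene, with capitals marking motif matches. The C3 window lies at chr17:57228137-57228386 on the minus strand, and the Cd55 window at chr1:130462745-130462994 on the minus strand.
C3: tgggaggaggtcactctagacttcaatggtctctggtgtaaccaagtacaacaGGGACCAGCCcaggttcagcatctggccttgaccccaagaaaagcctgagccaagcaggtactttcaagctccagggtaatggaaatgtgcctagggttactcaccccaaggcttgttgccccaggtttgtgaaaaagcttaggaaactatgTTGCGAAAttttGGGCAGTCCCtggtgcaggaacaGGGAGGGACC
Cd55: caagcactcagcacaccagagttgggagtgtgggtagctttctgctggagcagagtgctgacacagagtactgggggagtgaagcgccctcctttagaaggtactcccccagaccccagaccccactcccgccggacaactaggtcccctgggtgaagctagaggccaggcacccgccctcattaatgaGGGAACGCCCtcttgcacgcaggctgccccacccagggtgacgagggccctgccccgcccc

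Several short motifs were searched on both strands of these windows and of the 50 bases after the start. They were an NF-kB motif (GGGA and CC separated by any 4 bases), an interferon-stimulated response element (ISRE, GAAA and GAAA separated by any 2 bases), a gamma-activated sequence bound by STAT factors (GAS, TTCNNNGAA) and a C/EBP motif (TTGCNNAA). In C3, NF-kB matches began 197, 33 and 10 bases before the start and a C/EBP match began 45 bases before it. In Cd55, 1 NF-kB match began 61 bases before the start. At least 1 NF-kB match was present in 20.7% of 32851 promoter windows of the same length, and 3 or more were present in 0.533%. The C/EBP motif was present in 10.8%, the GAS motif in 8.3% and the ISRE motif in 3.44% of windows. The C1ra window held 1 GAS and 1 C/EBP match, both after the start. C1s1 had 2 overlapping entries, which shared 1 NF-kB match, and 1 of them also held a C/EBP match. The C3ar1 and C5ar1 windows held no match to any of the motifs. RefSeq promoter entries were found for 6 of the 9 genes, and C4b, Cfb and Cfi had none. A match describes letters in a window and is not evidence of binding.

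The members spanned a wide range of levels when counts were divided by gene length and depth (FPKM, fragments per kilobase and per 1000000 fragments). C3 was by far the highest, at 113 ± 7.82 FPKM in WT and 111 ± 61.4 FPKM in TRPM2-KO (SD, n = 3 each), and ranked 500 in WT and 381 in TRPM2-KO among 28884 genes with at least 1 count. Averaged over the 6 libraries, Cfi followed with 7.55 FPKM, then C1ra with 6.32, Cd55 with 5.85, C1s1 with 2.21, C4b with 1.57, Cfb with 0.983, C5ar1 with 0.315 and C3ar1 with 0.272 FPKM. Of the neighbours in this order, C3 was above Cfi and Cd55 above C1s1 with no overlap between their libraries. The ranges of every other pair of neighbours overlapped across libraries. Within each library, C1s1 was still above C4b and Cfb above C5ar1 in 6 of 6 libraries, C4b was above Cfb in 5, Cfi above C1ra and C1ra above Cd55 in 4, and C5ar1 above C3ar1 in 3. C3 made up 81.0% to 83.5% of the summed FPKM of the members in WT libraries. In TRPM2-KO, the C3 share was 86.5% in replicate 1, 81.9% in replicate 2 and 69.3% in replicate 4.

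**Figure D1:**
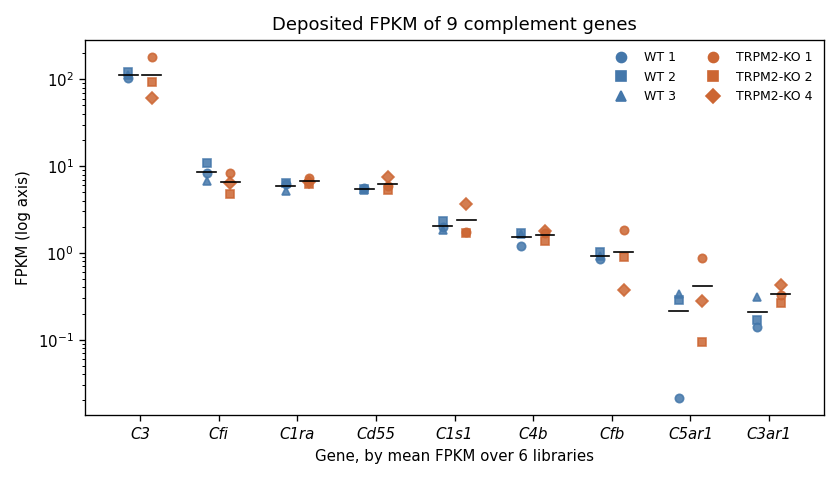
FPKM of the 9 complement genes (log axis) in each WT and TRPM2-KO kidney, with 1 point per library and bars at the group means. C3 lies between 61.2 and 179.6 FPKM in every library, above all other members, whereas the receptors C3ar1 and C5ar1 reach at most 0.881 FPKM.

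No member was called different between the genotypes. With edgeR's quasi-likelihood test and adjustment over all genes tested, 0 of 9 were called higher in TRPM2-KO, against 4.74% of all genes, and 0 of 9 were called lower, against 7.28%. DESeq2 and limma also called 0 of 9, and 0 of 9 had an unadjusted p under 0.05 in the edgeR test. With the mitochondrial genome, which took a larger share in TRPM2-KO, left out of the counts, 0 of 9 were called and C3 gave a log2 fold change of -0.02. Under a second rule, a log2 fold change beyond 1 at an unadjusted p under 0.05, the count was again 0 of 9. It passed 3.5% of genes as higher and 4.1% as lower, fewer than the adjusted p, so it is not a more permissive check. For none of the 9 did the 3 TRPM2-KO libraries lie wholly above or wholly below the 3 WT libraries, whereas 16.7% of all genes had every TRPM2-KO library above WT and 16.8% had every one below. The log2 fold changes (TRPM2-KO over WT) were above 0 for 7 members and below 0 for 2, with a median of 0.16, beside a median of 0.02 over all genes tested. A p that misses the threshold does not show that levels were equal, and the intervals given for each gene are the sizes these 6 libraries leave possible.

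**Figure D2:**
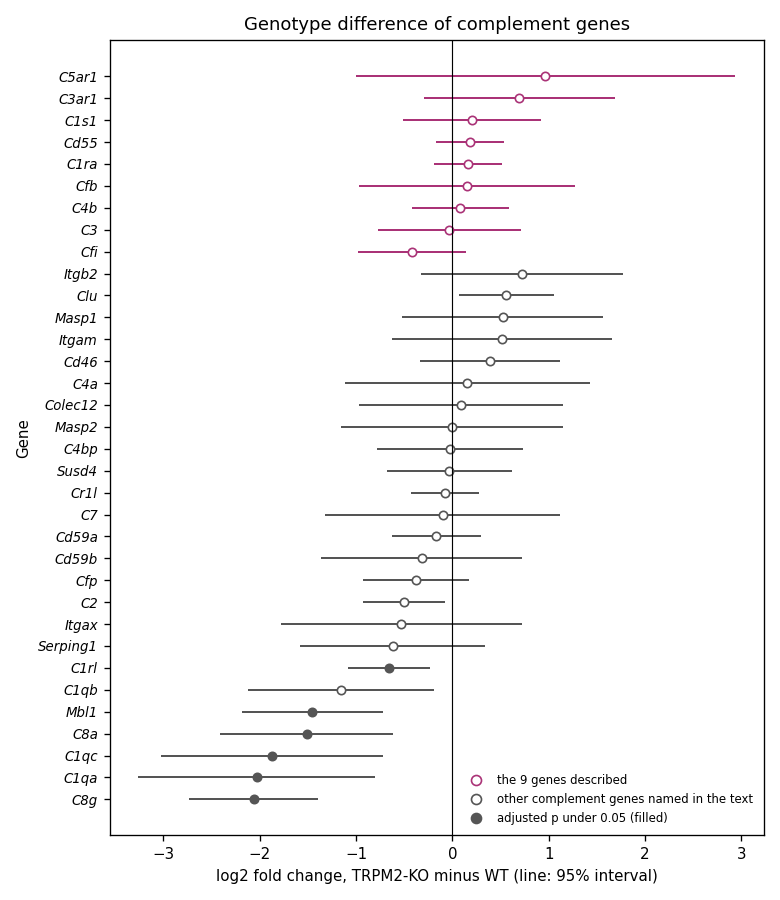
Log2 fold change (TRPM2-KO over WT) with its 95% interval for the 9 members and for the other complement genes named in the text, filled where called. Every member's interval crosses 0, and C8g, at -2.06, is the lowest of the other complement genes.

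C1ra and C1s1 encode the proteases of the first component and lie close together on chromosome 6 (GRCm38; C1ra from 124512405 to 124523443 on the plus strand, C1s1 from 124530345 to 124542359 on the minus strand). C1ra stood at 21.3, 21.7 and 17.9 CPM in WT and at 24.7, 20.9 and 22.3 CPM in TRPM2-KO replicates 1, 2 and 4. These narrow groups overlapped, and the log2 fold change was 0.16 (SE 0.15, 95% interval -0.18 to 0.50, adjusted p = 0.537). C1s1 stood at 7.15, 8.22 and 6.503 CPM in WT and at 6.24, 6.08 and 12.9 CPM in TRPM2-KO. Only TRPM2-KO replicate 4 was above the WT libraries, at 1.77 times the WT mean, and the other TRPM2-KO libraries lay just below all of WT. The log2 fold change of C1s1 was 0.21 (SE 0.31, interval -0.50 to 0.91, adjusted p = 0.718), and without TRPM2-KO replicate 4 it was -0.23. The proteases, which act as a complex, had their highest TRPM2-KO value in different kidneys, C1ra in replicate 1 and C1s1 in replicate 4.

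C4b encodes C4, the substrate of C1s, and lies in the complement gene cluster of chromosome 17 (34728380 to 34743882, minus strand). Its level was 7.71, 10.99 and 10.92 CPM in WT and 11.02, 8.81 and 11.5 CPM in TRPM2-KO. The libraries of both genotypes intermingled, with a log2 fold change of 0.08 (SE 0.22, interval -0.41 to 0.57, adjusted p = 0.852). Leaving out WT replicate 1, the lowest library, turned this to -0.08.

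C3 lies elsewhere on chromosome 17 (57203970 to 57228136, minus strand). It stood at 613, 706 and 668 CPM in WT and at 1049, 540.5 and 354 CPM in TRPM2-KO replicates 1, 2 and 4. The WT kidneys were close together, whereas 1 TRPM2-KO kidney was above all of them and 2 were below all of them. Relative to the WT mean, TRPM2-KO replicate 1 was at 1.58, replicate 2 at 0.816 and replicate 4 at 0.535. The log2 fold change was -0.03 (SE 0.33, interval -0.76 to 0.70, adjusted p = 0.964), which corresponds to a fold between 0.590 and 1.62. The direction rested on single kidneys. Without TRPM2-KO replicate 1 the log2 fold change was -0.57 (adjusted p = 0.130), without TRPM2-KO replicate 4 it was 0.28, without TRPM2-KO replicate 2 it was 0.08 and without WT replicate 2 it was 0.01. C3 was sampled by 5691 to 17138 counts per library, so counting error is small beside this spread.

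Cfb encodes factor B, the partner of C3 in the alternative pathway convertase, and lies in the cluster with C4b (chromosome 17, 34856374 to 34862518, minus strand). Its level was 2.71, 3.28 and 3.01 CPM in WT and 5.94, 2.87 and 1.18 CPM in TRPM2-KO. As for C3, TRPM2-KO replicate 1 was the highest and replicate 4 the lowest of all 6 libraries, at 1.98 and 0.395 times the WT mean. The log2 fold change was 0.15 (SE 0.50, interval -0.96 to 1.26, adjusted p = 0.877). It was -0.57 without TRPM2-KO replicate 1 and 0.57 without TRPM2-KO replicate 4. These libraries held only 19 to 97 counts of Cfb.

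Cfi encodes factor I, the plasma protease that inactivates C3b and C4b (chromosome 3, 129835884 to 129875332, plus strand). It stood at 20.9, 27.6 and 17.1 CPM in WT and at 21.2, 11.9 and 15.8 CPM in TRPM2-KO. Replicates 2 and 4 of TRPM2-KO were below all WT libraries, and replicate 1 lay within the WT range. Cfi had the largest negative log2 fold change of the members, -0.42 (SE 0.25, interval -0.97 to 0.13, adjusted p = 0.298). It was -0.22 without WT replicate 2, -0.24 without TRPM2-KO replicate 2 and -0.66 without TRPM2-KO replicate 1. Cd55, which encodes the membrane inhibitor that speeds the decay of convertases (chromosome 1, 130439027 to 130462744, minus strand), stood at 30.8, 30.1 and 29.9 CPM in WT and at 32.6, 29.1 and 41.5 CPM in TRPM2-KO. WT kidneys were nearly alike, and TRPM2-KO replicate 4 was the highest. The log2 fold change of Cd55 was 0.19 (SE 0.15, interval -0.16 to 0.53, adjusted p = 0.474), or 0.04 without TRPM2-KO replicate 4.

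The receptors were the lowest members. C3ar1, the receptor for C3a (chromosome 6, 122847138 to 122856161, minus strand), had 11, 13 and 25 counts in WT and 26, 19 and 33 counts in TRPM2-KO. The corresponding levels were 0.678, 0.835 and 1.53 CPM in WT and 1.59, 1.30 and 2.05 CPM in TRPM2-KO, with TRPM2-KO replicate 2 below the highest WT library. C5ar1, the receptor for C5a on myeloid cells (chromosome 7, 16246743 to 16259540, minus strand), had 1, 13 and 16 counts in WT and 42, 4 and 13 counts in TRPM2-KO. Here TRPM2-KO replicate 1 alone stood above WT, at 4.11 times the WT mean. The log2 fold change was 0.69 for C3ar1 (SE 0.44, interval -0.29 to 1.67, adjusted p = 0.336). For C5ar1 it was 0.96 (SE 0.87, interval -0.995 to 2.92, adjusted p = 0.515), and -0.19 without TRPM2-KO replicate 1. Macrophage and monocyte markers, which mark cells known for both receptors, gave 0 calls by edgeR, DESeq2 and limma-voom among 9 tested. Their log2 fold changes went both ways, 4 above 0 and 5 below, from -1.05 to 1.73. Of the 2 at an unadjusted p under 0.05 in edgeR, 1 was higher and 1 lower in TRPM2-KO. The summed level of the list was 136 to 170 CPM in WT and 99.9 to 160 CPM in TRPM2-KO. Neutrophil markers gave 0 calls by edgeR and 1 by DESeq2 among 5 tested (1 at an unadjusted p under 0.05 in edgeR), with sums of 3.52 to 14.8 CPM in WT and 7.44 to 13.3 CPM in TRPM2-KO. The part of either cell type in the receptor counts was not tested.

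The TRPM2-KO kidneys varied more than the WT kidneys in C3 and Cfb. The highest C3 library was 1.15 times the lowest in WT and 2.96 times the lowest in TRPM2-KO. A ratio this wide within TRPM2-KO was seen for 8.69% of all genes tested, and for 0.928% of the 2048 genes with a mean of 100 CPM or more. For Cfb the ratios were 1.21 in WT and 5.02 in TRPM2-KO, a width reached by 3.02% of all genes tested. The TRPM2-KO ratio exceeded the WT ratio in 5 of 9 members, beside 68.7% of all genes tested, so a wider TRPM2-KO group as such was common in these libraries. The TRPM2-KO range enclosed the WT range for C3, Cfb, C1s1 and Cd55, but the share of all genes for which it did so was not determined. TRPM2-KO replicate 1 was the highest TRPM2-KO library for C3, Cfb, Cfi, C1ra and C5ar1, and replicate 4 was the highest for C4b, C1s1, C3ar1 and Cd55.

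**Figure D3:**
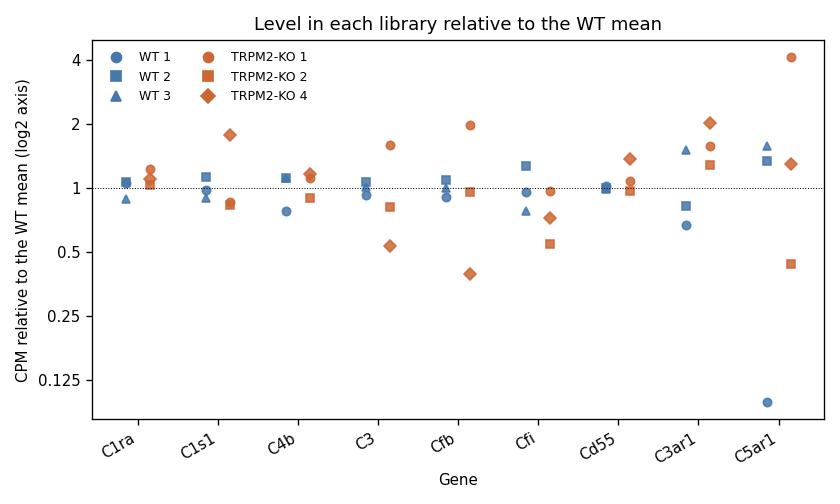
Level of each member in each library relative to its WT mean (log axis; 1 marks the WT mean). C3 and Cfb share an order in TRPM2-KO, replicate 1 high and replicate 4 low, whereas C1s1 is high in replicate 4 alone.

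The likeness of C3 and Cfb was measured across the 6 libraries as the root mean square difference between their centred log2(CPM + 0.5) values, over 13011 genes with a mean of at least 1 CPM and excluding predicted gene models. The 2 genes most like C3 were Oaz1-ps, a pseudogene, at 0.0884, and Cfb at 0.137. Conversely, C3 was the gene most like Cfb among those 13011. The nearest gene was Il16 for C4b (0.0639), Pltp for Cfi (0.0778), Sfmbt1 for C1ra (0.0376), Rcan2 for C1s1 (0.0984), Rnase4 for C3ar1 (0.103), Sparcl1 for C5ar1 (0.279) and Srd5a3 for Cd55 (0.0243). This measure is a description over 6 libraries, and a small value also results for any steadily expressed gene, as for Cd55 and C1ra.

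The kidney with the highest C1s1 was also the one that stood apart in markers of other cell types. In TRPM2-KO replicates 1, 2 and 4, summed fibroblast markers were 88.9, 73.7 and 188 CPM, beside 71.0 to 103 CPM in WT. Endothelial markers were 71.2, 68.5 and 255 CPM, beside 127 to 199 CPM in WT, and podocyte markers were 172, 147 and 509.8 CPM, beside 130.4 to 173 CPM in WT. Of these lists, 1 of 7 fibroblast genes tested was called higher (Acta2), against 4.74% of all genes. Among endothelial genes 1 of 8 was called lower (Plvap), against 7.28% of all genes. By edgeR 0 of 5 podocyte genes were called, with 3 at an unadjusted p under 0.05, and 1 was called by DESeq2. Serping1, which encodes the fluid-phase C1 inhibitor, was at 11.3, 16.5 and 45.3 CPM in TRPM2-KO, beside 29.4 to 42.0 CPM in WT, so that replicate 4 was 1.21 times the WT mean and replicates 1 and 2 were below all WT libraries. The part of these cell types in the C1s1 value of replicate 4 was not tested. Albumin (Alb), the defining hepatocyte gene, was at 0.0623 to 1.35 CPM in all libraries. Of 6 hepatocyte-list genes tested, 3 were called lower (Serpina1c, Cyp2e1 and Ttr), against 7.28% of all genes.

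**Figure D4:**
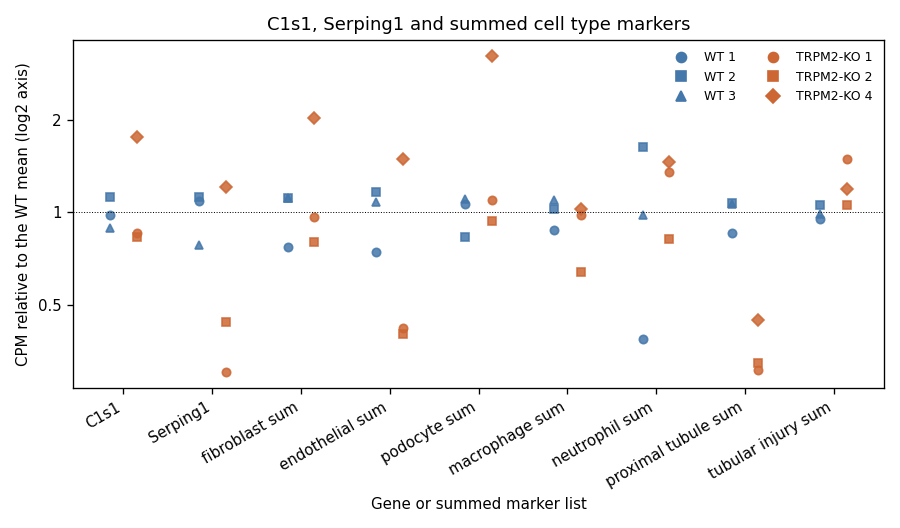
CPM of C1s1 and Serping1 and summed CPM of cell-type marker lists in each library, relative to the WT mean (log axis). Podocyte markers in TRPM2-KO replicate 4 reach 3.24, and proximal tubule markers in TRPM2-KO lie between 0.307 and 0.446.

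Some of the other complement genes fell in TRPM2-KO kidneys. Of 46 further genes listed, 27 were tested and 6 were called lower, against the 7.28% of all genes, and 0 were called higher by edgeR. At an unadjusted p under 0.05 in edgeR were 9 of the 27, a count with no share of all genes beside it. The median log2 fold change of the 27 was -0.10. By role, 2 of 5 initiation genes tested (Mbl1 and C1rl), 2 of 3 C1q chains (C1qa and C1qc), 2 of 3 terminal components (C8a and C8g), 0 of 3 convertase genes, 0 of 9 regulators and 0 of 4 receptors were called lower by edgeR. At an unadjusted p under 0.05 were 1 convertase gene (C2), 1 regulator (Clu, which was higher) and 0 receptors. C8g, a lipocalin chain of C8, was at 13.0, 18.3 and 20.4 CPM in WT and 2.57, 4.64 and 5.17 CPM in TRPM2-KO, a log2 fold change of -2.06 (SE 0.29, adjusted p = 0.00371). C8a fell by 1.51 on the log2 scale (adjusted p = 0.0373), Mbl1, a mannose-binding lectin, by 1.45 (adjusted p = 0.0201) and C1rl, a C1r-like protease, by 0.66 (adjusted p = 0.0483). The C1q chains, which bind immune complexes, gave -2.03 for C1qa (adjusted p = 0.0401), -1.88 for C1qc (adjusted p = 0.0421) and -1.16 for C1qb (adjusted p = 0.110), and WT replicate 1 held only 4.93 CPM of C1qa beside 19.7 and 23.3 CPM in the other WT libraries. C8g alone kept its call in all 17 alternative settings, and the count of 6 was 1 without TRPM2-KO replicate 1, WT replicate 2 or WT replicate 3 and 2 without TRPM2-KO replicate 2. C8g overlaps Fbxw5, which had 958 to 1724 counts, on the opposite strand. The library kit named in the methods does not mark strand, so reads from the overlap cannot be told apart, although the transcripts shared no window of 75 bases.

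The 21 others tested were not called. Of those with a mean of at least 1 CPM, the direct partners of the members were C2, the C4b-bound protease that cleaves C3 (log2 fold change -0.50, adjusted p = 0.111), C4a (0.16), properdin, which steadies the convertase of C3 and factor B (Cfp, -0.38), C4b-binding protein (C4bp, -0.03) and C1 inhibitor (Serping1, -0.62, adjusted p = 0.380). All 3 TRPM2-KO libraries of C2 were below WT, at 13.4 to 21.2 CPM against 24.0 to 26.0 CPM, as was the case for 16.8% of all genes tested. The membrane regulators gave 0.39 for Cd46, -0.17 for Cd59a, -0.32 for Cd59b and -0.08 for Cr1l, and the chains of complement receptors 3 and 4 gave 0.51 for Itgam, -0.53 for Itgax and 0.72 for Itgb2. Remaining values were 0.52 for Masp1, -0.01 for Masp2, 0.09 for Colec12, -0.10 for C7 and -0.03 for Susd4. Clu, which encodes clusterin, an inhibitor of the terminal complex and a tubular injury gene, had 1646 to 2455 CPM in WT and 2403 to 3582 CPM in TRPM2-KO (0.56, adjusted p = 0.124 by edgeR and 0.0413 by DESeq2).

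C3, C4b and Cfb are known acute-phase genes, and other acute-phase genes and the pathways known to induce them were examined beside them. Of 56 such genes, 46 were tested, 8 were called higher, against 4.74% of all genes, and 2 lower, against 7.28%, and the median log2 fold change was 0.32. Among 15 acute-phase genes, Serpina3n (1.92, adjusted p = 0.00765) and Cp, ceruloplasmin (1.17, adjusted p = 0.0128), rose, while Lbp (-1.22, adjusted p = 0.0266) and Serpina1a (-1.11, adjusted p = 0.0492) fell, and the list median was 0.10. Serpina3n was at 9.87 to 14.8 CPM in WT and at 22.2 to 61.7 CPM in TRPM2-KO, so every TRPM2-KO kidney was above WT, which was not so for C3. Of 12 IL-6 family and STAT3 genes, Osmr, the oncostatin M receptor (1.28, adjusted p = 0.00298), and Lif (1.14, adjusted p = 0.00968) rose, and Jak2 gave 0.60 (adjusted p = 0.0533). Of 12 IL-1, TNF and NF-kB genes, 4 rose, namely the NF-kB subunits Nfkb2 (0.62), Relb (0.63) and Nfkb1 (0.63) and the inhibitor Nfkbia (0.62), with adjusted p between 0.0201 and 0.0496. The count of 8 was 5 without WT replicate 1 or TRPM2-KO replicate 1, 3 without WT replicate 2, 4 without WT replicate 3 and 13 without TRPM2-KO replicate 4. The 2 called lower became 0 without any 1 WT library or TRPM2-KO replicate 4, and 1 without TRPM2-KO replicate 1. The count called higher was 0 by limma on log2(FPKM + 1) with no filter.

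**Figure D5:**
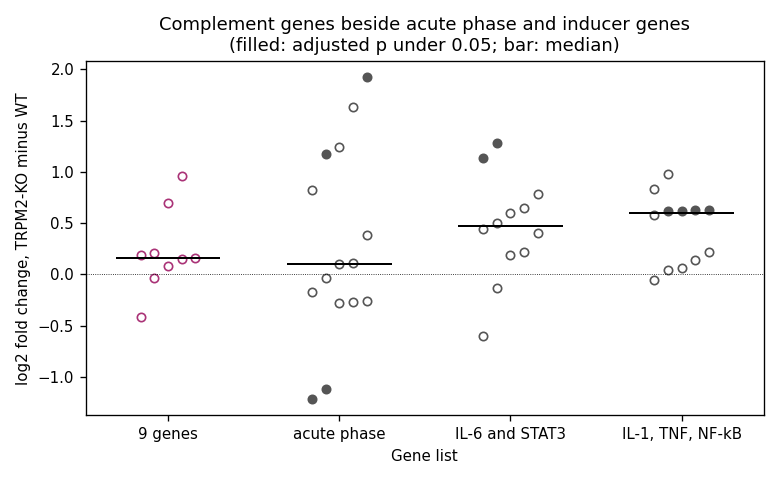
Log2 fold changes (TRPM2-KO over WT) of the tested genes of the members, the acute-phase list and 2 inducer lists, with the list median as a bar. Members lie between -0.42 and 0.96, and the IL-1, TNF and NF-kB list has a median of 0.60.

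Some members share sequence with relatives, so part of their counts is uncertain. Of all 75-base windows along the transcripts, 22.7% of those of C4b also occurred in C4a, 42.4% of those of C1ra occurred in C1rb or Gm18840, 24.8% of those of C1s1 in C1s2 or Gm16567 and 6.13% of those of Cd55 in Cd55b or Gm16083. For Cfb, 69.9% of windows were shared with Gm20547, a model that overlaps it on the same strand and had 0 counts in every library. C3, Cfi, C3ar1 and C5ar1 shared no window with another gene. Of the other genes named, C2 shared 39.2% of its windows with Gm20547 or Zbtb12, Masp2 51.35% with Tardbp on the opposite strand and Itgam 65.2% with Gm49368. The relatives of C4b, C1ra, C1s1 and Cd55 were low beside them. C4a was at 0.551 to 3.07 CPM, and the mean over the 6 libraries was 0.0876 CPM for C1rb, 0.249 CPM for C1s2 and 0.0102 CPM for Cd55b. How reads that fit both copies were assigned is not given in the sources used here.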

How the data were processed

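RNA from 3 WT and 3 TRPM2-KO kidneys, all from cisplatin-treated mice, had been sequenced. The authors deposited read counts per gene and FPKM values with gene lengths. The submitters' processing notes name HISAT2, StringTie and the build mm9 without versions, but gene positions in the deposited tables are those of GRCm38 for 53499 of 54409 genes shared with its annotation and for 9 of 9 members. How these tools were combined, and the counting tool, are not given in the sources used here. FPKM, computed by the authors per length and per 1000000 fragments, were used only to compare levels between genes and in alternative fits.

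Counts were tested with edgeR 4.0.16 in R 4.3.3 (filterByExpr, TMM scaling, quasi-likelihood test, genotype alone), with Benjamini-Hochberg adjustment over 15816 genes. Calls had an adjusted p under 0.05, and intervals are 95% from the same fit. CPM are deposited counts over TMM-scaled library sizes. Library totals were 14053307 to 17150089 counts. Groups came from the genotype labels, and no batch is labelled. The labels number the kidneys without naming the mice, so p-values measure the spread between these 6 libraries. Replicates of a group differed beyond counting noise.

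Alternatives were other scalings and filters, DESeq2 1.42.0, limma 3.58.1 (voom, and log2 of FPKM with pseudocounts 1 and 0.1), a fit without the mitochondrial genome, a replicate block and each library left out. The scripts were tested on simulated counts. The members and lists were chosen with earlier results of these data known. Named genes were all members, other complement genes of at least 1 CPM, up to 3 genes per further list by smallest p, the nearest 3 genes to C3 and the nearest 1 to each other member, and Trpm2. Serpina1a and Nfkbia were added after their values were seen. A few genes that this rule names, and 1 inducer list, are not reported here. Promoters and transcripts were matched by symbol.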

Additional observations from a re-analysis of the deposited data

How the results depend on the processing

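Both member counts, calls at an adjusted p under 0.05 and under the second rule, stayed at 0 in all 17 alternatives. C3ar1 and C5ar1 fell below the filter in some and could not be fitted there. Member log2 fold changes that reversed were already uncalled. With the replicate block, the genotype difference rested on replicates 1 and 2 alone, because WT replicate 3 and TRPM2-KO replicate 4 have no counterpart. In that fit C3 gave 0.20 and C1s1 -0.32, and the other 7 members kept their sign. By limma-voom Cfb gave -0.13 and by limma on log2(FPKM + 0.1) it gave -0.082. Leaving out each library in turn gave ranges of -0.57 to 0.28 for C3, -0.077 to 0.18 for C4b, -0.57 to 0.57 for Cfb, -0.23 to 0.39 for C1s1, -0.19 to 1.44 for C5ar1, -0.66 to -0.22 for Cfi, 0.07 to 0.21 for C1ra, 0.47 to 1.11 for C3ar1 and 0.04 to 0.29 for Cd55. Replicate numbers 1 and 2 occur in both genotypes, and the labels do not say whether they pair kidneys. Deviations of same-numbered libraries were nearly uncorrelated across genes (r = 0.0960 and -0.00275), which cannot exclude a pairing that affects few genes. The block fit, with its genotype difference from replicates 1 and 2 alone, called 4 other complement genes lower, not all of them called in the main fit. Of those called in the main fit, C8a and C8g kept their call, and C1rl, Mbl1, C1qa and C1qc lost it.

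The count of other complement genes called lower, 6 in the report, was 9 with no filter, 7 by DESeq2, 3 by limma on log2(FPKM + 0.1), 1 by limma on log2(FPKM + 1) with no filter, and 1 to 6 with a library left out. Called higher, it was 1 by DESeq2 (Clu). Acute-phase and inducer genes called higher, 8 in the report, were 15 with no filter, 0 by limma on log2(FPKM + 1) with no filter, and 3 to 13 with a library left out. Those called lower, 2 in the report, were 1 under upper-quartile scaling, 1 with a filter of 1 CPM in 3 libraries, 0 in each limma fit on FPKM, 0 with the replicate block, and 0 to 2 with a library left out. The cause of these shifts was not tested. Depth limits C5ar1, C3ar1 and Cfb, with 1 to 97 counts per library.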

Other observations

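Fibrinogen, a liver acute-phase product also made by injured tubules, varied among the kidneys of both genotypes. Fga was at 620.0, 1285 and 542 CPM in WT and 1318, 941 and 391 CPM in TRPM2-KO replicates 1, 2 and 4, and Fgg was at 709.6, 1472 and 569.6 CPM in WT and 963, 944 and 393 CPM in TRPM2-KO. Both were lowest in TRPM2-KO replicate 4, the library with the lowest C3, and neither was called (log2 fold change 0.11 for Fga and -0.26 for Fgg, adjusted p = 0.894 and 0.723 by edgeR). The third chain, Fgb, differed from them, at 47.3, 81.5 and 32.1 CPM in WT and 207, 132 and 42.8 CPM in TRPM2-KO. Its lowest library was WT replicate 3, and its log2 fold change of 1.25 was not called (unadjusted p = 0.0320 and adjusted p = 0.135 by edgeR). Saa1, serum amyloid A, was likewise lowest in TRPM2-KO replicate 4, at 9.40 CPM beside 42.0 and 78.4 CPM in the other TRPM2-KO libraries and 45.3 to 56.8 CPM in WT.

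Cfd, which encodes factor D, the protease that cleaves factor B and is made mainly by adipocytes, had 293 counts in WT replicate 1 and 0 to 3 counts in the other libraries, and did not pass the filter. The adipocyte gene Adipoq was at 3.95 CPM in the same library and at 0 to 0.122 CPM elsewhere. The genes of both paragraphs were chosen after their values were seen.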
